A study of Mus musculus with 9 samples.

Results

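The genes described here are 43 mouse genes of DNA replication licensing and synthesis, picked by name for their roles. They encode the subunits of the MCM2-7 helicase (6 genes), the origin recognition complex and the factors that load the helicase (9), the proteins that activate it (6), the sliding clamp and its loader (6), the DNA polymerases and primase (6), the proteins that bind single strands and remove flaps (4), the enzymes of deoxynucleotide supply (4) and a pair of E2F activators (2). All 43 were found among the 36410 genes listed in the count table, and all 43 were among the 13508 that passed the filter on low counts.

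The mRNA was measured by RNA-seq of poly(A) RNA in 3 immortalized mouse striatal cell lines used as a model of Huntington disease (HD), with 3 libraries from each. Control cells (STHdhQ7/Q7) have a huntingtin gene with 7 glutamine codons on both alleles, HD-het cells (STHdhQ7/Q111) have 7 on 1 allele and 111 on the other, and HD-homo cells (STHdhQ111/Q111) have 111 on both. All 9 libraries are labelled as C57/BL6 and as striatal, the lines come from embryos, and cell lines of this kind carry a temperature-sensitive SV40 large T antigen, a viral protein that binds RB proteins. Each genotype is 1 line, so that effects of the genotype and of the line cannot be told apart. Since no label says that the libraries of a line came from separate cultures, the p-values measure only the spread between these libraries, which may be technical.

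DNA replication starts at origins, which are bound by the origin recognition complex (ORC). In G1, ORC, Cdc6 and Cdt1 load the MCM2-7 ring onto DNA, which licenses the origin, and in S phase Cdc45 and GINS turn the ring into a moving helicase that primase, polymerases and the PCNA clamp follow. Transcription of many of these genes is driven by E2F factors, which RB proteins hold in check, and is high in dividing cells and low in mature neurons.

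Libraries held between 29507665 and 41197931 counts, and a count of 3, the smallest taken to show a gene, lay between 0.071 and 0.101 normalized counts per megaread (CPM, counts scaled by the normalized library total). Such floors and the precision of counts cover counting error only. The labelled cell type was compared with marker genes. The summed markers of striatal projection neurons (12 genes) ran from 91.6 to 102 CPM in control, 120.2 to 122 in HD-het and 163 to 185 in HD-homo cells, of which Foxp1, a transcription factor gene, made up means of 93.8, 114 and 168 CPM. The dopamine receptor gene Drd1 was at 0 in all libraries, and Drd2, Gad1 and Ppp1r1b lay at means of at most 0.326 CPM in any line. The pan-neuronal list (8 genes) summed to 139 to 171, 109 to 116 and 91.8 to 115 CPM in the same order of lines, with Rbfox3, Snap25 and Syt1 at means of at most 0.031 CPM. The neural progenitor list (10 genes), to which Vim contributed most, ran from 5939.6 to 6409, 5354 to 5869.6 and 4201 to 4643 CPM. Against control cells 2 of its 7 tested genes were higher and 3 lower in HD-het cells, and 2 were higher (Dlx1 and Dlx2) and 4 lower in HD-homo cells. Among those lower there, Nes went from 526 ± 34.6 CPM (SD, n = 3) in control and 839.5 ± 18.1 in HD-het to 28.4 ± 6.52 in HD-homo cells and Pax6 from 32.1 ± 0.605 and 48.2 ± 1.23 to 0.132 ± 0.0327. The mesenchymal list (8 genes) ran from 4621 to 5853 CPM in control, 12791 to 14737 in HD-het and 6245 to 6817 in HD-homo cells. Its 6 tested genes went both ways against control cells, with 4 higher and 2 lower in HD-het and 4 higher and 1 lower in HD-homo cells. Of all tested genes 33.8% were higher and 31.4% lower in HD-het cells, and 29.6% and 28.9% in HD-homo cells. The astrocyte list (6 genes) summed to 2.86 ± 0.132, 1.34 ± 0.244 and 15.4 ± 2.97 CPM, most of it in HD-homo cells Slc1a3, with Gfap at a mean of at most 0.169 CPM in any line. The oligodendrocyte list (6 genes) ran from 0.609 to 1.06, 1.38 to 1.68 and 1.87 to 2.86 CPM, with Mbp and Sox10 higher in HD-homo cells. The microglial (6 genes) and endothelial (5 genes) lists summed to 1.28, 1.33 and 2.23 and to 0.888, 1.24 and 1.32 CPM on average. Of the 2 microglial genes tested, 1 was higher and 1 lower in HD-homo cells, and 1 was lower in HD-het cells. Mog, Aif1 and Cldn5, defining markers of oligodendrocytes, microglia and endothelium, were at 0 in all libraries. The part of these differences between the lines in the results was not tested. In bulk RNA, fewer cells in S phase and less RNA per cell cannot be told apart.

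Replication genes were mostly lower in HD-het cells and were near the control level, in both directions, in HD-homo cells. Against control cells, 29 of the 43 genes (67.4%) were lower in HD-het cells and 1 was higher at an adjusted p under 0.05 in edgeR's quasi-likelihood test, where 31.4% of all tested genes were lower and 33.8% higher. In HD-homo cells, 13 genes were higher and 8 lower than in control cells, beside 29.6% higher and 28.9% lower among all tested genes. Between the HD lines, HD-homo cells were the higher in 31 of the 43 genes (72.1%) and lower in 1, beside 36.0% and 35.6% of all tested genes. The median log2 fold change of the 43 genes was -0.31 for HD-het against control, 0.057 for HD-homo against control and 0.39 for HD-homo against HD-het, and the medians over all tested genes were 0.025, 0.0077 and 0.0017. These comparisons share libraries and are not independent of each other.

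**Figure D1:**
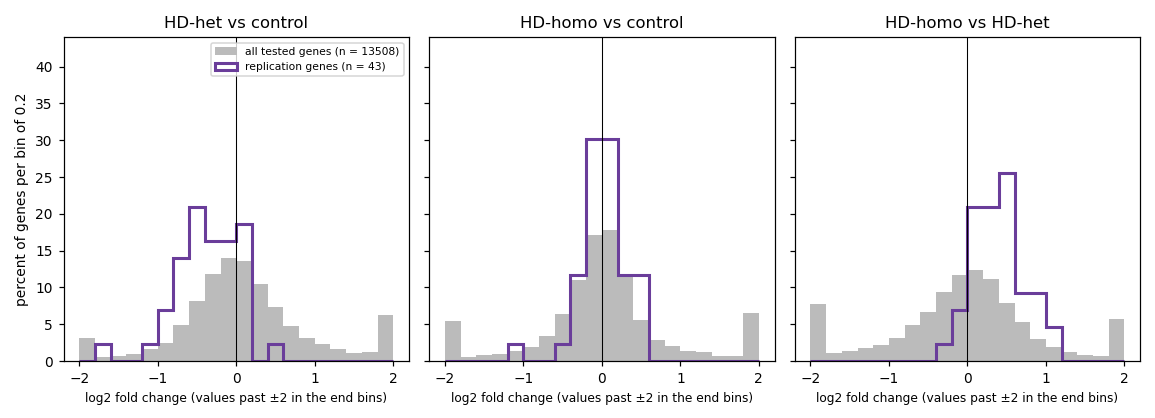
Distribution of the log2 fold change of the 43 replication genes (purple line) and of all 13508 tested genes (gray bars) in the 3 comparisons, as a percent of genes per bin of 0.2, with values past ±2 placed in the end bins. The purple line lies mostly left of 0 in HD-het against control cells (median -0.31), around 0 in HD-homo against control cells (median 0.057) and mostly right of 0 in HD-homo against HD-het cells (median 0.39).

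The libraries of the lines did not overlap for 30 of the 43 genes (69.8%) in HD-het against control cells, where 74.0% of all tested genes did not overlap. They did not overlap for 26 genes (60.5%) in HD-homo against control cells, beside 65.3% of all tested genes, and for 33 genes (76.7%) between the HD lines, beside 72.8%. The mean level was lowest in HD-het cells for 32 of the 43 genes, in control cells for 8 and in HD-homo cells for 3. It was highest in HD-homo cells for 22, in control cells for 19 and in HD-het cells for 2. The same ranking was not made over all tested genes, so these counts have no background share beside them.

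The summed level of the 43 genes was 5529 ± 156 CPM in control, 4367 ± 268 in HD-het and 5483 ± 341 in HD-homo cells (mean ± SD, n = 3). Relative to the control mean it was 79.0% for HD-het and 99.2% for HD-homo cells. The 3 HD-het libraries (4180 to 4674 CPM) lay below all control libraries (5413 to 5706) and all HD-homo libraries (5271 to 5876). Replicate 3 had the highest share of counts on these genes in each line, at 0.572% in control, 0.46% in HD-het and 0.587% in HD-homo cells, against 0.542% to 0.544%, 0.418% to 0.419% and 0.531% to 0.544% in the other 2 libraries.

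Read by pattern, 15 genes passed as lower in HD-het cells and did not pass in HD-homo cells, and all of these but Mcm2, Pold1 and Rrm1 also differed between the HD lines. A set of 8 was lower in both HD lines. A further 6 were lower in HD-het and higher in HD-homo cells (Mcm5, Orc6, Gmnn, Gins3, Gins4 and Rfc4), and 7 passed as higher in HD-homo cells and did not pass in HD-het cells (Orc5, Gins2, Rfc2, Rfc3, Rfc5, Pola1 and Tyms), of which all but Rfc3 also differed between the HD lines. E2f1 alone was higher in HD-het cells. The last 6, Mcm6, Orc3, Orc4, Rpa1, Rpa3 and Rrm2, passed the test in neither. The share of all tested genes with each of these joint patterns was not computed. Most changes were small. A log2 fold change of 1 or more in size was reached by Cdc6 and E2f2 in HD-het cells and by E2f2 in HD-homo cells. The count of 8 lower genes in HD-homo cells changed when some single libraries were left out, which leaves fewer samples. It was 3 without control replicate 3, and 5 without control replicate 2, HD-homo replicate 1 or HD-homo replicate 2. Likewise, the 1 gene lower in HD-homo cells against HD-het cells became 3 without HD-homo replicate 3, when Mcm6 and Rrm2 joined E2f1.

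**Figure D2:**
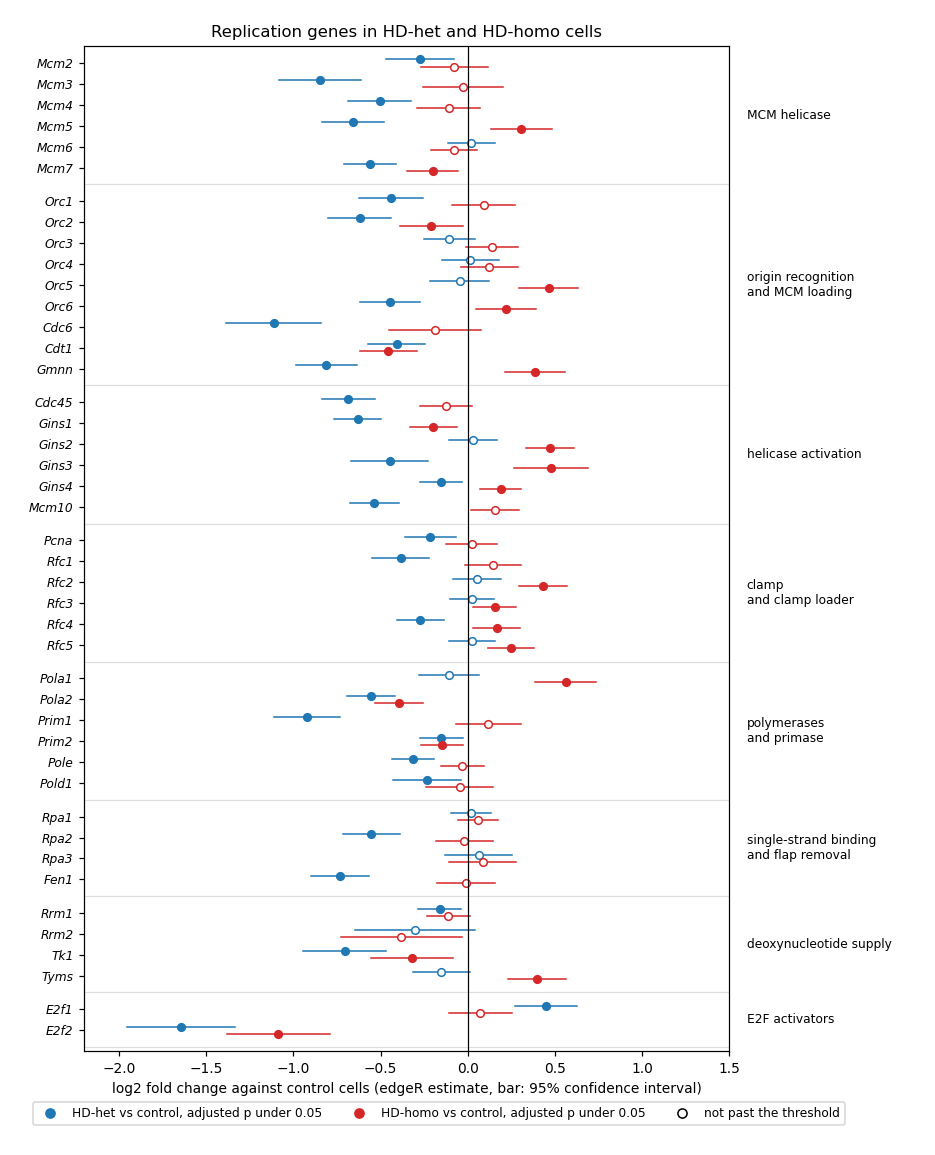
Log2 fold change of each of the 43 replication genes against control cells in HD-het (blue) and HD-homo cells (red), grouped by role; points are edgeR estimates, bars are 95% confidence intervals and filled points passed an adjusted p of 0.05. Blue points lie left of 0 for 34 of the 43 genes, while red points lie on both sides, 23 right and 20 left of 0.

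Sequence around the start sites is given because E2F-type words recur in it. RefSeq windows of 300 bases, 250 before and 50 after a start site (GRCm38.p6), were at hand for 35 of the 43 genes (41 windows). The start sites are those of RefSeq and can differ from GENCODE's. The last 50 bases were found in a GENCODE transcript of the gene for 31 of the 41 windows. The windows that hold the E2F-type words of Mcm5 and E2f2 lie wholly before the GENCODE start of the gene. Those of Cdc6 and Mcm7 lie wholly inside the gene. The window of Rpa1 lies before its gene and that of E2f1 inside it. Fen1 has a further window before its gene, and Orc2, Orc4 and E2f2 have a further window inside theirs. The words TTTCCCGC, TTTCGCGC, TTTGCCGC and TTTGGCGC were searched on both strands, and words on opposite strands can overlap in 1 run. At least 1 of them was found for 13 of the 35 genes (37.1%), against 2.6% of the 27025 genes in the same RefSeq table. The CCAAT word, which NF-Y binds, was found on either strand for 23 of the 35 genes (65.7%) against 41.1% of all genes in the table. A match is a description of the letters and not a bound site.

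The 13 genes with an E2F-type word are each given by a stretch of 28 bases around the word nearest the start site, on the strand of the gene, 5′ to 3′, with the word or run of overlapping words in capitals. They are given so that the words can be set beside the expression values. The stretch of Rfc3 opens with a further searched word, TTTCGCGC, which is left in lower case.
Mcm3, chr1:20820276-20820303 (-): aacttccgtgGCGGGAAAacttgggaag
Mcm5, chr8:75109348-75109375 (+): ccaagaacTTTCGCGCCAAAacgtccag
Mcm6, chr1:128359735-128359762 (-): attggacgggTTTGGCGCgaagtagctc
Mcm7, chr5:138171850-138171877 (-): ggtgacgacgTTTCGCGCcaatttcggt
Orc1, chr4:108579417-108579444 (+): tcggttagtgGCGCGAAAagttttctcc
Orc3, chr4:34614966-34614993 (-): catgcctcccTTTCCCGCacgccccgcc
Cdc6, chr11:98908003-98908030 (+): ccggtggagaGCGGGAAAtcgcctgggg
Cdt1, chr8:122568037-122568064 (+): gaactaccttTTTGGCGCcatggcgcaa
Gins3, chr8:95633508-95633535 (+): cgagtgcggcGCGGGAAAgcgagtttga
Rfc3, chr5:151651191-151651218 (-): tttcgcgctcGCGGGAAAactctactgt
Pola1, chrX:93632276-93632303 (-): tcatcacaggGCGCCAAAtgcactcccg
Pold1, chr7:44548766-44548793 (-): cggcggcgtatcttgtgGCGGGAAAagc
E2f2, chr4:136172296-136172323 (+): aatttggcggcatatagTTTGGCGCtaa

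These words were set beside the HD-het values. Of the 13 with a word, 9 were lower in HD-het cells and 4 (Mcm6, Orc3, Rfc3 and Pola1) did not pass the test. Of the 22 with a window and no word, 14 were lower, 1 was higher and 7 did not pass. The 1 higher was E2f1, whose window lies inside its GENCODE gene, so that sequence before the GENCODE start was not searched. Of the 8 without a window, 6 were lower. The median log2 fold change in HD-het cells was -0.44 for genes with a word and -0.29 for those with a window and no word.

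The stretch of 250 bases before the start site is shown for Mcm5, Mcm6 and Pola1, which hold the word and behaved differently. Mcm5 was lower in HD-het and higher in HD-homo cells, Mcm6 passed the test in neither, and Pola1 passed as higher in HD-homo cells and did not pass in HD-het cells. Capitals again mark the E2F-type words.
Mcm5, chr8:75109259-75109508 (+): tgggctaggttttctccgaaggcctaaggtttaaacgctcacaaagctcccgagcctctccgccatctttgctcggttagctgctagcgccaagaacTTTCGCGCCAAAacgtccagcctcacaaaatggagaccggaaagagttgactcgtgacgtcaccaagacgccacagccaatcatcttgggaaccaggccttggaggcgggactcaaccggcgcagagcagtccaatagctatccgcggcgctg
Mcm6, chr1:128359706-128359955 (-): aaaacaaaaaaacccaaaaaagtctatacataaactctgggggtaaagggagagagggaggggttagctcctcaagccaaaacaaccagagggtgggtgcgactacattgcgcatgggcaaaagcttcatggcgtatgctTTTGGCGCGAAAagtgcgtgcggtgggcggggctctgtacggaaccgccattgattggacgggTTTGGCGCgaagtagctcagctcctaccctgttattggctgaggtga
Pola1, chrX:93632156-93632405 (-): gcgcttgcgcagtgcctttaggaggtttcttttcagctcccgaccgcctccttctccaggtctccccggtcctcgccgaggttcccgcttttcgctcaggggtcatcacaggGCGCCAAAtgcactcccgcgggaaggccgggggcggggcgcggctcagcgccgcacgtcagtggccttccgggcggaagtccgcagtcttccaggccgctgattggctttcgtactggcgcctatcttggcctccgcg

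The MCM2-7 helicase is a ring of 6 different subunits that sit in it once each, and 5 of its 6 genes were lower in HD-het cells. Mcm3 fell most (positions are those of whole genes in GENCODE on GRCm38). Mcm3 (chr1:20802968-20820312) had 333, 327 and 383 in control, 188, 178 and 213 in HD-het and 321, 306 and 397 in HD-homo cells (normalized CPM of replicates 1 to 3). The HD-het libraries were all below the control and HD-homo libraries, which overlapped. Mcm3 was 1.80-fold lower in HD-het cells against control (log2 fold change -0.85 ± 0.11 (SE), adjusted p = 3.38e-05) and did not pass in HD-homo cells (log2 fold change -0.027 ± 0.11 (SE), adjusted p = 0.84). Mcm5 (chr8:75109569-75128439) was measured at 270.2, 262 and 285 in control, 169, 163 and 186 in HD-het and 315, 319 and 379 in HD-homo cells. No line overlapped another: HD-het cells were lowest and HD-homo cells highest. The gene was 1.58-fold lower in HD-het cells (log2 fold change -0.66 ± 0.08 (SE), adjusted p = 2.82e-05) and 1.24-fold higher in HD-homo cells (log2 fold change 0.31 ± 0.08 (SE), adjusted p = 0.00643).

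Mcm6 (chr1:128331590-128359664) passed the test in neither HD line. It lay at 288, 287 and 293 in control, 297, 283 and 301 in HD-het and 266, 259 and 297 in HD-homo cells, with overlap between all lines, and its 95% confidence interval against control cells ran from -0.11 to 0.15 in HD-het and from -0.21 to 0.054 in HD-homo cells on the log2 scale. Mcm7 (chr5:138164583-138172422) had 268, 270.2 and 281 in control, 183, 175 and 198 in HD-het and 229.7, 226 and 257 in HD-homo cells, so control cells were highest, HD-homo cells intermediate and HD-het cells lowest without overlap. Mcm7 was 1.47-fold lower in HD-het cells (log2 fold change -0.56 ± 0.067 (SE), adjusted p = 2.46e-05) and 1.15-fold lower in HD-homo cells (log2 fold change -0.20 ± 0.067 (SE), adjusted p = 0.0235). Of its 50-base words, 18.1% occur in another gene, most in Gm5487, so that some reads could have been assigned to either.

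Mcm2 and Mcm4 were lower in HD-het cells as well, with log2 fold changes of -0.27 and -0.50 (adjusted p = 0.0171 and 0.000235, edgeR), and did not pass in HD-homo cells (-0.077 and -0.11). Levels of different genes were compared per length of transcript, as normalized reads per kb of transcript per megaread. The 6 subunits ran from 80.6 (Mcm5) to 115 (Mcm3) in control cells and from 76.8 (Mcm4) to 113 (Mcm3) in HD-homo cells. In HD-het cells they ran from 51.1 (Mcm5) to 101 (Mcm6), so that the subunits were less even there. The lower Mcm2 level in HD-het cells was lost without control replicate 3, HD-het replicate 1 or HD-het replicate 2, at an adjusted p of up to 0.0715. The lower Mcm7 level in HD-homo cells was lost without control replicate 2 or 3 or HD-homo replicate 1 or 2, at up to 0.0745.

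**Figure D3:**
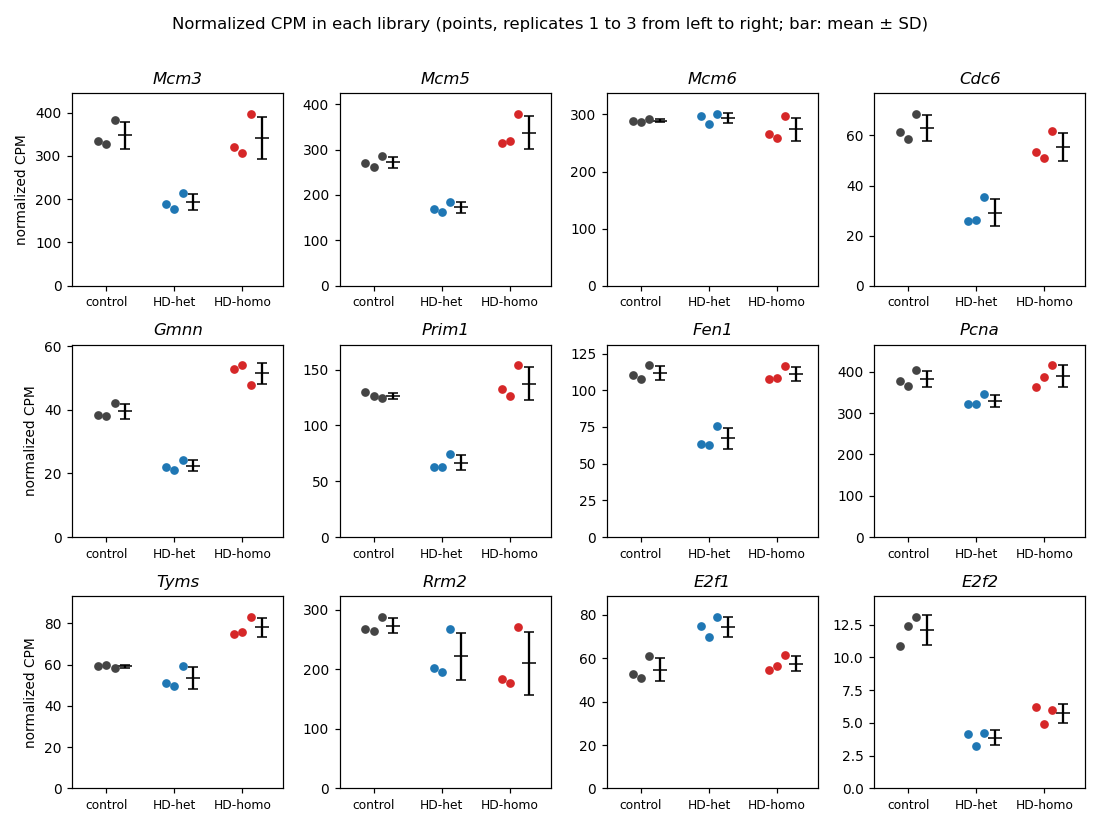
Normalized CPM of 12 replication genes in each of the 9 libraries, with points for the libraries (gray, control; blue, HD-het; red, HD-homo) and bars for the mean ± SD of 3 libraries; every vertical axis starts at 0. HD-het libraries lie below all others for Mcm3, Mcm5, Cdc6, Gmnn, Prim1, Fen1, Pcna and E2f2 and above all others for E2f1, the libraries of Mcm6 overlap between all lines, and Rrm2 is split by 1 high library in each HD line.

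Genes of origin recognition and MCM loading were lower in HD-het cells in 6 of 9 cases, and 3 were higher and 2 lower in HD-homo cells. Cdc6 (chr11:98907801-98923940), the ATPase that recruits MCM2-7 to ORC, fell most. Its level was 61.4, 58.8 and 68.6 in control, 25.8, 26.2 and 35.4 in HD-het and 53.3, 50.9 and 61.7 in HD-homo cells. The 3 HD-het libraries were all lowest, and control and HD-homo libraries overlapped. Cdc6 was 2.16-fold lower in HD-het cells (log2 fold change -1.11 ± 0.12 (SE), adjusted p = 1.36e-05) and did not pass in HD-homo cells (log2 fold change -0.19 ± 0.12 (SE), adjusted p = 0.205).

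Cdt1 and Gmnn, a loader and its inhibitor, moved differently. Cdt1 (chr8:122568015-122573554) brings MCM2-7 to the origin and had 114, 112 and 124 in control, 88.7, 87.6 and 87.6 in HD-het and 76.9, 84.8 and 93.9 in HD-homo cells. All libraries of both HD lines were below the control libraries, and the HD lines overlapped. The fall was 1.33-fold in HD-het (log2 fold change -0.41 ± 0.074 (SE), adjusted p = 0.000497) and 1.37-fold in HD-homo cells (log2 fold change -0.45 ± 0.074 (SE), adjusted p = 0.000284). Gmnn (chr13:24751845-24761923) encodes geminin, which binds Cdt1 and blocks relicensing, and had 38.4, 38.0 and 42.1 in control, 22.2, 20.9 and 24.4 in HD-het and 52.9, 54.0 and 47.8 in HD-homo cells. It was 1.76-fold lower in HD-het cells (log2 fold change -0.81 ± 0.08 (SE), adjusted p = 5.32e-06) and higher in HD-homo cells (log2 fold change 0.38 ± 0.078 (SE), adjusted p = 0.00135), with no overlap between any lines. HD-homo cells exceeded HD-het cells 2.29-fold (log2 fold change 1.20 ± 0.079 (SE), adjusted p = 1.4e-07), which no other of the 43 genes exceeded.

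The 6 ORC genes did not move together, although their products form 1 complex. Orc5 (chr5:22486485-22550429) was 1.38-fold higher in HD-homo cells (log2 fold change 0.46 ± 0.076 (SE), adjusted p = 0.000319), at 20.5, 20.5 and 19.3 in control, 18.1, 20.5 and 19.9 in HD-het and 28.8, 25.7 and 28.8 in HD-homo cells. Control and HD-het libraries overlapped, and all HD-homo libraries were above them. Orc6 was lower in HD-het (log2 fold change -0.45 ± 0.078 (SE), adjusted p = 0.000395) and higher in HD-homo cells (log2 fold change 0.22 ± 0.077 (SE), adjusted p = 0.03), with 99.2, 97.2 and 102 in control, 72.1, 70.0 and 77.1 in HD-het and 106, 112 and 130.5 in HD-homo cells and no overlap between lines. Orc1 and Orc2 were lower in HD-het cells, with log2 fold changes of -0.44 and -0.62 (adjusted p = 0.000709 and 5.37e-05, edgeR). Orc4 (chr2:48902824-48950277) had 60.1, 63.2 and 54.9 in control, 54.8, 65.1 and 60.0 in HD-het and 64.1, 63.9 and 66.2 in HD-homo cells and passed in neither line (HD-het, log2 fold change 0.013 ± 0.074 (SE), adjusted p = 0.886), nor did Orc3 (-0.11 in HD-het and 0.14 in HD-homo cells).

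Per length, Orc6 was the most abundant ORC mRNA in each line, at 77.4 in control, 56.8 in HD-het and 90.1 in HD-homo cells, while Orc1 and Orc5 were the least, at 10.2 and 9.56 in control cells. Orc2 was lower in HD-homo cells at an adjusted p of 0.0459, which was lost under 8 of 18 alternatives, among them leaving out any control library, HD-het replicate 2 or HD-homo replicate 1 or 2 (up to 0.147). The higher Orc6 level in HD-homo cells was lost without control replicate 1 or 2, HD-homo replicate 3 or replicate 3 of every line (up to 0.124). Of the exon bases of Orc2, 29.8% are shared with a gene on the opposite strand.

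Among the genes of helicase activation, 5 of 6 were lower in HD-het cells, and 3 were higher and 1 lower in HD-homo cells. All 6 passed as higher when HD-homo was set against HD-het cells. Cdc45 (chr16:18780447-18811987), which joins MCM2-7 and GINS in the moving helicase, had 63.3, 59.8 and 63.2 in control, 36.7, 36.7 and 42.5 in HD-het and 55.6, 56.4 and 58.9 in HD-homo cells. The HD-het libraries lay below the rest, and the HD-homo libraries lay just below the control libraries. Cdc45 was 1.61-fold lower in HD-het cells (log2 fold change -0.69 ± 0.069 (SE), adjusted p = 6.65e-06) and did not pass in HD-homo cells (log2 fold change -0.12 ± 0.068 (SE), adjusted p = 0.14).

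The 4 GINS genes encode a tetramer but differed in direction in HD-homo cells. Gins3 (chr8:95633453-95645060) had 16.5, 16.4 and 18.1 in control, 13.4, 11.4 and 12.5 in HD-het and 23.1, 21.3 and 26.6 in HD-homo cells. Its libraries did not overlap between any lines, with HD-homo highest and HD-het lowest (log2 fold change 0.48 ± 0.097 (SE), adjusted p = 0.00145 in HD-homo and log2 fold change -0.45 ± 0.1 (SE), adjusted p = 0.00217 in HD-het cells). Gins4 showed the same order with smaller changes (0.19 and -0.15). Gins1 (chr2:150905400-150931280) had 62.7, 62.5 and 65.9 in control, 40.4, 39.1 and 43.9 in HD-het and 57.2, 53.6 and 56.0 in HD-homo cells and was lower in HD-het (log2 fold change -0.63 ± 0.062 (SE), adjusted p = 5.34e-06) and, by less, in HD-homo cells (log2 fold change -0.20 ± 0.061 (SE), adjusted p = 0.0171). Gins2 (chr8:120578633-120589304) had 43.6, 45.1 and 48.3 in control, 48.8, 45.2 and 45.9 in HD-het and 63.6, 60.8 and 65.5 in HD-homo cells, so that HD-homo cells stood apart, 1.38-fold above control cells (log2 fold change 0.47 ± 0.062 (SE), adjusted p = 6.46e-05), and HD-het cells did not pass (log2 fold change 0.029 ± 0.063 (SE), adjusted p = 0.704).

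Per length, Gins1 was at 58.6 and Gins3 at 6.75 in control cells. Mcm10, which helps to start the helicase, was lower in HD-het cells (log2 fold change -0.54 ± 0.064 (SE), adjusted p = 2.33e-05) and lay just short of the threshold in HD-homo cells (log2 fold change 0.16 ± 0.063 (SE), adjusted p = 0.0507), where it passed without HD-homo replicate 2 (0.0302). Of the exon bases of Gins2, 67.3% are shared with a gene on the opposite strand. The lower Gins1 level in HD-homo cells was lost without control replicate 3 (adjusted p = 0.0619, edgeR). The lower Gins4 level in HD-het cells was lost without any 1 control library, HD-het replicate 2 or 3 or replicate 3 of every line (up to 0.116).

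Of the clamp and its loader, 3 of 6 genes were lower in HD-het cells and 4 of 6 were higher in HD-homo cells. Rfc2 (chr5:134581366-134601805), a small subunit of the loader that opens the PCNA ring, had 55.4, 51.9 and 56.3 in control, 56.1, 53.6 and 60.0 in HD-het and 70.6, 74.1 and 76.4 in HD-homo cells. HD-homo libraries were all above the control and HD-het libraries, which overlapped, and the rise was 1.35-fold (log2 fold change 0.43 ± 0.063 (SE), adjusted p = 0.000125). In HD-het cells Rfc2 did not pass (log2 fold change 0.052 ± 0.063 (SE), adjusted p = 0.49). Rfc1 (chr5:65261850-65335670), the large subunit, had 124, 133 and 136 in control, 94.5, 103 and 103 in HD-het and 131, 158 and 146 in HD-homo cells and was 1.31-fold lower in HD-het cells (log2 fold change -0.38 ± 0.074 (SE), adjusted p = 0.000811). The HD-het libraries of Rfc1 were below the rest, and control and HD-homo libraries overlapped. In HD-homo cells it did not pass (adjusted p = 0.113, edgeR) but did so as higher without HD-homo replicate 1 (0.0261).

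Pcna (chr2:132249162-132253314), which encodes the sliding clamp, had 377, 366 and 404 in control, 322, 321 and 345 in HD-het and 362, 388 and 416 in HD-homo cells. The HD-het libraries were lowest, and control and HD-homo libraries overlapped. Pcna was 1.16-fold lower in HD-het cells (log2 fold change -0.22 ± 0.066 (SE), adjusted p = 0.0138) and did not pass in HD-homo cells (log2 fold change 0.023 ± 0.066 (SE), adjusted p = 0.784). Rfc3, Rfc4 and Rfc5 were higher in HD-homo cells by log2 fold changes of 0.15, 0.17 and 0.25, and Rfc4 was lower in HD-het cells (log2 fold change -0.27 ± 0.061 (SE), adjusted p = 0.00231).

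Pcna was the most abundant of the 43 mRNAs per length in every line, at 252 in control, 217 in HD-het and 256 in HD-homo cells, while the 5 loader genes lay between 10.9 (Rfc2) and 35.2 (Rfc3) in control cells. The transcript lengths used were 4995 bases for Rfc2 and 1317 for Rfc3. Of the 50-base words of Pcna, 19.1% occur in another gene, most in Pcna-ps2. The lower Pcna level in HD-het cells was lost without control replicate 3 or HD-het replicate 1 (adjusted p up to 0.058). The higher levels of Rfc3 and Rfc4 in HD-homo cells were lost under 9 and 7 of 18 alternatives (adjusted p up to 0.161 and 0.103, edgeR). Both were lost without the filter on low counts, without control replicate 1 or 2 and without HD-homo replicate 2 or 3. Rfc3 was also lost with only the 2 lines compared, after thinning, and without HD-het replicate 1 or HD-homo replicate 1. Rfc4 was also lost without control replicate 3 and without replicate 3 of every line.

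In the group of polymerases and primase, 5 of 6 genes were lower in HD-het cells, and 1 was higher and 2 were lower in HD-homo cells. The 4 genes of polymerase α-primase, the complex that lays the first primers, moved in 3 different ways. Pola1 (chrX:93304767-93632155), its catalytic DNA polymerase subunit, had 63.8, 69.2 and 64.4 in control, 56.8, 63.9 and 62.7 in HD-het and 86.9, 106 and 98.5 in HD-homo cells. All HD-homo libraries were above the others, with a mean 1.47-fold above control cells (log2 fold change 0.56 ± 0.079 (SE), adjusted p = 9.73e-05), and HD-het cells did not pass (log2 fold change -0.11 ± 0.079 (SE), adjusted p = 0.255). This was the largest increase in HD-homo cells among the 43 genes on the log2 scale.

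Pola2 (chr19:5940542-5964202), the accessory subunit, went the other way in HD-homo cells. It had 72.0, 70.0 and 73.5 in control, 48.0, 45.7 and 52.8 in HD-het and 54.8, 55.7 and 53.3 in HD-homo cells, with control libraries above all libraries of both HD lines. Pola2 was 1.47-fold lower in HD-het (log2 fold change -0.56 ± 0.063 (SE), adjusted p = 1.61e-05) and 1.32-fold lower in HD-homo cells (log2 fold change -0.40 ± 0.063 (SE), adjusted p = 0.000246). Prim1 (chr10:128015168-128030037), the catalytic primase, had 129.5, 126 and 124 in control, 62.8, 63.1 and 74.3 in HD-het and 132, 126 and 154 in HD-homo cells. HD-het libraries were all far below the rest, 1.90-fold lower than control (log2 fold change -0.92 ± 0.086 (SE), adjusted p = 3.71e-06), and HD-homo libraries overlapped control libraries (log2 fold change 0.12 ± 0.085 (SE), adjusted p = 0.255).

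Prim2, the regulatory primase subunit, was lower in both HD lines by 1.11-fold (log2 fold change -0.15 ± 0.055 (SE), adjusted p = 0.0313 in HD-het and log2 fold change -0.15 ± 0.055 (SE), adjusted p = 0.0375 in HD-homo cells). Pole and Pold1, the catalytic subunits of the leading and lagging strand polymerases, were lower in HD-het cells (-0.31 and -0.23, adjusted p = 0.000432 and 0.0367, edgeR) and did not pass in HD-homo cells (-0.03 and -0.046). Per length, Prim1 was the most abundant of the 6 in control cells (79.9) and Pola1 the least (12.3).

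In HD-het cells the calls of Prim2 and Pold1 were lost without any 1 control library or HD-het replicate 1 or 2 (adjusted p up to 0.106 and 0.149). In HD-homo cells that of Prim2 was lost under 8 of 18 alternatives, among them leaving out any control library, HD-het replicate 1 or HD-homo replicate 1 or 2 (up to 0.112), and the difference of Pola2 between HD-homo and HD-het cells (adjusted p = 0.0395) was lost under 9, among them leaving out any library but HD-het replicate 3 and HD-homo replicate 3 (up to 0.159).

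Of the genes of single-strand binding and flap removal, 2 of 4 were lower in HD-het cells. In HD-homo cells 0 of 4 passed edgeR's test, 0 had an unadjusted p under 0.05 and DESeq2 called 0. Fen1 (chr19:10199132-10204169), the nuclease that trims flaps between Okazaki fragments, had 111, 107 and 117 in control, 63.5, 62.9 and 75.4 in HD-het and 108, 108 and 116 in HD-homo cells. HD-het libraries were all far below the rest, 1.66-fold lower than control cells (log2 fold change -0.73 ± 0.076 (SE), adjusted p = 8.3e-06). Rpa2 (chr4:132768332-132778752), the middle subunit of the single-strand binding protein RPA, had 56.4, 56.7 and 61.9 in control, 38.7, 37.0 and 43.5 in HD-het and 55.3, 56.3 and 61.0 in HD-homo cells. It was 1.47-fold lower in HD-het cells (log2 fold change -0.55 ± 0.075 (SE), adjusted p = 6.08e-05), while HD-homo and control libraries overlapped (log2 fold change -0.019 ± 0.074 (SE), adjusted p = 0.838).

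The genes of the other subunits of the RPA trimer did not pass. Rpa3 (chr6:8255936-8259173) had 18.3, 16.7 and 19.8 in control, 18.4, 19.7 and 19.1 in HD-het and 19.6, 20.8 and 17.6 in HD-homo cells and overlapped between all lines (log2 fold change 0.062 ± 0.088 (SE), adjusted p = 0.555 in HD-het and log2 fold change 0.086 ± 0.088 (SE), adjusted p = 0.422 in HD-homo cells). Rpa1 had log2 fold changes of 0.017 and 0.057. Per length, Rpa1, Rpa2 and Rpa3 were at 63.2, 32.2 and 27.2 in control cells and at 63.9, 21.9 and 28.4 in HD-het cells. Of the exon bases of Fen1, 84.2% are shared with genes on the opposite strand, and whether the counting used the strand is not given in the sources used here.

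Of the 4 genes of deoxynucleotide supply, HD-het cells had 2 lower, while HD-homo cells had 1 higher and 1 lower. Tk1 (chr11:117815526-117826092), the thymidine kinase of the salvage pathway, had 174, 173 and 184 in control, 102, 92.2 and 132 in HD-het and 144, 146 and 136 in HD-homo cells. The control libraries were above all HD libraries, with a fall of 1.63-fold in HD-het (log2 fold change -0.71 ± 0.11 (SE), adjusted p = 0.000147) and 1.25-fold in HD-homo cells (log2 fold change -0.32 ± 0.11 (SE), adjusted p = 0.0232). Tyms (chr5:30058202-30073617), the thymidylate synthase of the de novo route, had 59.3, 59.9 and 58.5 in control, 51.0, 49.5 and 59.4 in HD-het and 75.0, 75.7 and 83.2 in HD-homo cells. Tyms rose 1.32-fold in HD-homo cells (log2 fold change 0.40 ± 0.074 (SE), adjusted p = 0.000818) and did not pass in HD-het cells (log2 fold change -0.15 ± 0.075 (SE), adjusted p = 0.0952), so that the salvage and de novo enzymes for thymidylate went opposite ways in HD-homo cells.

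Rrm1 and Rrm2 encode the large and the small subunit of ribonucleotide reductase. Rrm2 (chr12:24708241-24714146) had 268, 264 and 288 in control, 202, 196 and 267 in HD-het and 183, 176 and 270.1 in HD-homo cells, with replicate 3 high in both HD lines and inside the control range. It passed in neither line (log2 fold change -0.30 ± 0.16 (SE), adjusted p = 0.112 in HD-het and log2 fold change -0.38 ± 0.16 (SE), adjusted p = 0.0568 in HD-homo cells). Rrm2 passed as lower in HD-homo cells without HD-homo replicate 3 (adjusted p = 0.00121, edgeR), without HD-het replicate 3 (0.0344) and by DESeq2 (0.0317). Rrm2 also passed as lower in HD-het cells without HD-het replicate 3 (0.0253) or HD-homo replicate 3 (0.0242). Rrm1 was slightly lower in HD-het cells (log2 fold change -0.16 ± 0.056 (SE), adjusted p = 0.0257), a call lost without any 1 control library or HD-het replicate 1 or 2 (up to 0.1). The fall of Tk1 in HD-homo cells was lost without control replicate 3 or HD-homo replicate 3 (up to 0.0718), and Tyms passed as lower in HD-het cells without HD-het replicate 3 (0.00909).

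The E2F activators moved in opposite directions in HD-het cells. E2f1 (chr2:154559407-154569892) had 52.6, 50.7 and 60.8 in control, 74.6, 69.9 and 79.2 in HD-het and 54.4, 56.6 and 61.5 in HD-homo cells. All HD-het libraries were above the others, which overlapped, and the rise was 1.36-fold (log2 fold change 0.45 ± 0.081 (SE), adjusted p = 0.000529), while HD-homo cells did not pass (log2 fold change 0.073 ± 0.081 (SE), adjusted p = 0.464). E2f1 was also the 1 gene lower in HD-homo cells against HD-het cells (log2 fold change -0.37 ± 0.081 (SE), adjusted p = 0.00147). E2f2 (chr4:136172394-136196057) had 10.9, 12.4 and 13.1 in control, 4.15, 3.23 and 4.25 in HD-het and 6.25, 4.90 and 6.02 in HD-homo cells. Control libraries were highest, HD-homo libraries intermediate and HD-het libraries lowest, with no overlap. E2f2 was 3.13-fold lower in HD-het (log2 fold change -1.64 ± 0.14 (SE), adjusted p = 1.88e-06) and 2.12-fold lower in HD-homo cells (log2 fold change -1.09 ± 0.14 (SE), adjusted p = 3.84e-05), the largest change of the 43 genes in both lines. It was also the least abundant of the 43 per length, at 2.56 in control, 0.818 in HD-het and 1.21 in HD-homo cells.

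**Figure D4:**
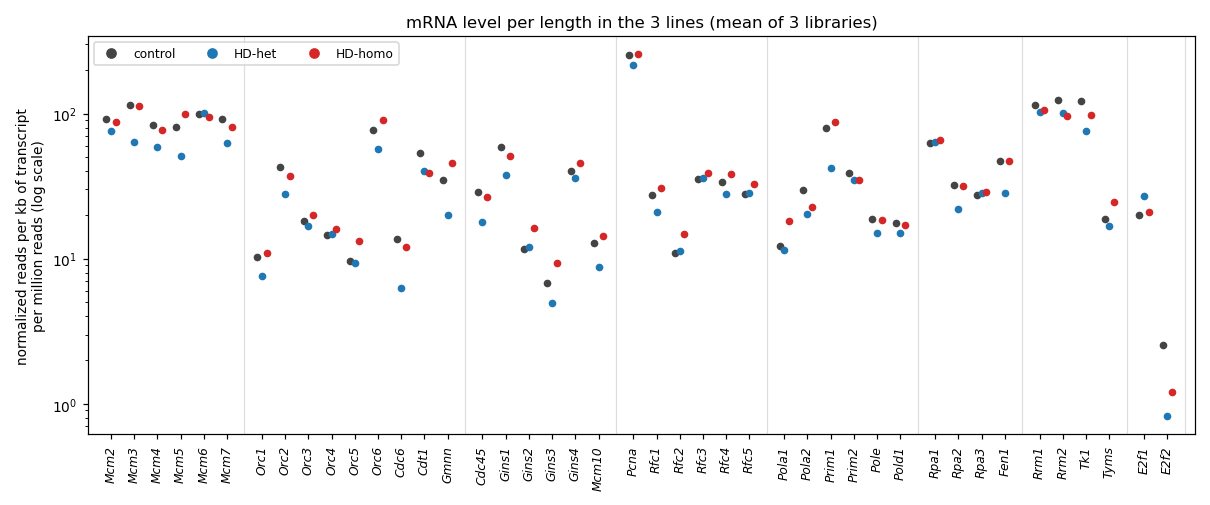
Mean level of each of the 43 replication genes in control (gray), HD-het (blue) and HD-homo cells (red), as normalized reads per kb of transcript per megaread on a log axis, in the order of the role groups, n = 3 libraries a line. Pcna is the highest and E2f2 the lowest in each line, and the 6 MCM genes lie between 51.1 and 115.

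Summed by role, HD-het cells were below control cells in 7 of the 8 groups. The MCM2-7 genes summed to 1790.2 ± 88.8 CPM in control, 1311 ± 82.1 in HD-het and 1760 ± 175 in HD-homo cells (mean ± SD, n = 3), so HD-het cells had 73.2% of the control mean. The share was 72.7% for origin recognition and loading, 75.6% for helicase activation, 75.7% for polymerases and primase, 82.0% for deoxynucleotide supply, 88.2% for the clamp and its loader and 88.5% for single-strand binding and flap removal. For the E2F pair it was 117%, since E2f1 outweighs E2f2. In HD-homo cells the shares ran from 88.2% for deoxynucleotide supply to 109% for the clamp and its loader.

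A further list held genes that act in replication beyond the 43. Of 48 such genes, all of which passed the filter, HD-het cells had 29 lower (60.4%) and 5 higher (10.4%) than control cells. Of all tested genes 31.4% were lower and 33.8% higher there. HD-homo cells had 13 lower (27.1%) and 19 higher (39.6%), beside 28.9% and 29.6% of all tested genes. When HD-homo was set against HD-het cells, 35 were higher (72.9%) and 1, Donson, was lower (log2 fold change -0.24 ± 0.068 (SE), adjusted p = 0.0082). Of all tested genes 36.0% were higher and 35.6% lower in that comparison. Their median log2 fold change was -0.33 in HD-het and 0.099 in HD-homo against control cells. Recql4, a helicase of origin firing, had the largest fall in HD-het cells, with 52.5 ± 2.04 CPM in control and 21.2 ± 0.723 in HD-het cells (log2 fold change -1.31 ± 0.061 (SE), adjusted p = 2.01e-08). Dtymk, a thymidylate kinase, had the largest rise there (log2 fold change 0.49 ± 0.057 (SE), adjusted p = 1.9e-05). In HD-homo cells the extremes were Mcm8, an MCM relative that acts in recombination (log2 fold change 0.87 ± 0.09 (SE), adjusted p = 8.49e-06), and Rnaseh2c, a subunit of RNase H2 (log2 fold change -0.70 ± 0.1 (SE), adjusted p = 0.000136).

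The E2F and RB genes with the G1 and S phase cyclins, kinases and their regulators (29 genes) were lower in HD-het cells in 17 cases and higher in 5, where 31.4% of all tested genes were lower and 33.8% higher. In HD-homo cells 11 were lower and 6 higher, beside 28.9% and 29.6%. HD-homo cells exceeded HD-het cells in 17 (58.6%) and fell below them in 6 (20.7%), beside 36.0% and 35.6% of all tested genes. Ccnd1, which encodes cyclin D1, fell most in HD-het cells, from 739 ± 81.5 CPM in control to 139 ± 2.92 in HD-het and 264 ± 48.2 in HD-homo cells (log2 fold change -2.41 ± 0.13 (SE), adjusted p = 4.55e-08 in HD-het and log2 fold change -1.49 ± 0.12 (SE), adjusted p = 1.15e-06 in HD-homo cells). Ccnd2, for cyclin D2, fell most in HD-homo cells and was higher in HD-het cells (log2 fold change -2.37 ± 0.069 (SE), adjusted p = 2.83e-10 and log2 fold change 0.36 ± 0.065 (SE), adjusted p = 0.000469). Cdk6, a kinase that cyclin D activates, was higher in HD-homo against HD-het cells by the most in this list (log2 fold change 1.51 ± 0.094 (SE), adjusted p = 8.52e-08), and Ccnd2 was lower by the most (log2 fold change -2.74 ± 0.07 (SE), adjusted p = 7.41e-11). E2f6, a repressor of the E2F family, had the largest rise in HD-het cells (log2 fold change 1.49 ± 0.073 (SE), adjusted p = 3.08e-08) and was lower in HD-homo cells (log2 fold change -0.73 ± 0.076 (SE), adjusted p = 8.98e-06), and Tfdp2, an E2F partner, had the largest rise in HD-homo cells (log2 fold change 0.56 ± 0.092 (SE), adjusted p = 0.000312).

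**Figure D5:**
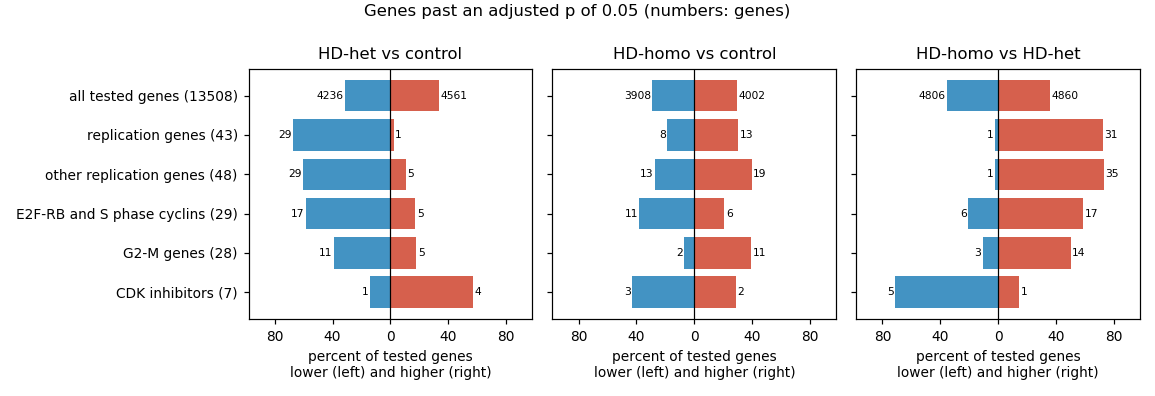
Percent of tested genes that were lower (blue, left) and higher (red, right) at an adjusted p under 0.05 in each comparison, for all tested genes, the 43 replication genes and 4 further gene lists, with the number of genes beside each bar. In HD-het against control cells 29 of the 43 replication genes and 29 of the 48 other replication genes were lower, and in HD-homo against HD-het cells 31 and 35 were higher.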

How the data were processed

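RNA-seq was made from poly(A) RNA of 3 striatal cell lines, 3 libraries each, with a directional library kit per the labels. The authors deposited raw counts per gene symbol, whole numbers without normalization. The submitters' processing notes name cutadapt, Bowtie 1.1.2, RSEM 1.3.0 and DESeq2 and the builds GRCm38.p5 and mm10 without saying what each did, and the annotation and the strand setting of the counting are not given in the sources used here. If RSEM made the counts, reads shared by near-identical genes were divided by estimate and then rounded.

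Tests were run with edgeR 4.0.16 (R 4.3.3), after its filterByExpr (minimum count 10, line as group) and TMM normalization. The quasi-likelihood fit used all 9 libraries with a mean for each line. P-values are two-sided, adjusted by Benjamini-Hochberg over all tested genes of a comparison, with a threshold of 0.05. Log2 fold changes are edgeR estimates, and SE is the log2 fold change divided by the root of F. Values given as a number followed by -fold are ratios of mean normalized CPM. Levels per length used the longest principal transcript of a gene in GENCODE release M21, or its longest coding one where none was marked principal. Ranks between genes depend on that choice. GENCODE also gave gene positions on GRCm38. Alternatives were other scalings, DESeq2 1.42.0, other filters, 2 lines at a time, a replicate block, thinning, a threshold of 0.01 and leaving out libraries. The genes, their role groups and the other gene lists were chosen with earlier results of these data known, so no test was made over a list. In each role group, the genes with the highest and the lowest log2 fold change in each HD line were given in full, genes that passed in opposite directions were named, and from the other lists the extremes among those past the threshold, 1 of which is not reported here.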

Additional observations from a re-analysis of the deposited data

How the results depend on the processing

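The count of members lower in HD-het cells, 29, ran from 23 to 30 over all alternatives, and the 1 higher stayed at 1. In HD-homo against control cells the 13 higher ran from 9 to 15, and the 8 lower from 3 to 10. That last count was 3 at an adjusted p under 0.01 and 3 to 9 when 1 library was left out. In HD-homo against HD-het cells the 31 higher ran from 30 to 34, and the 1 lower was 3 without replicate 3 of every line and 1 to 3 when 1 library was left out. Leaving out libraries leaves fewer samples. For the other changes the cause was not tested. The calls of 24 of 30 members in HD-het against control, 13 of 21 in HD-homo against control and 31 of 32 in HD-homo against HD-het cells were made under each of 18 alternatives at the 0.05 threshold. The replicate numbers were not used to pair the libraries in the main fit, since no label says what they mark. Deviations of same-numbered libraries correlated at 0.00893 to 0.0332 (HD-homo and control), 0.0488 to 0.145 (HD-het and control) and -0.00532 to 0.133 (HD-homo and HD-het). Each library correlated best with its own number except replicate 1 between HD-homo and HD-het cells, a hint from the data and not from the design. With the replicate block, 15 members were higher and 10 lower in HD-homo and 30 lower in HD-het cells, and the genes called rose from 7910, 8797 and 9666 to 8372, 9160 and 9938. The members gained with the block were Orc3 and Rfc1 (higher, adjusted p = 0.048 and 0.0297, edgeR) and Cdc6 and Rrm2 (lower, 0.0296 and 0.00278) in HD-homo against control cells, Rrm2 (lower, 0.00864) in HD-het cells, and Mcm2 and Pold1 (higher, 0.00312 and 0.0307) in HD-homo against HD-het cells. After thinning to the smallest library 12 members were higher and 8 lower in HD-homo cells, the call of Rfc3 being lost (0.0592).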

Other observations

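Of 28 genes of G2 and mitosis, 11 were lower and 5 higher in HD-het cells against control, with a median log2 fold change of -0.019, and 11 were higher and 2 lower in HD-homo cells (edgeR, adjusted p under 0.05). Of all tested genes 31.4% were lower and 33.8% higher in HD-het cells and 28.9% lower and 29.6% higher in HD-homo cells. Ccnb2, which encodes cyclin B2, had the largest rise in both lines, from 37.6 ± 1.32 CPM in control to 106 ± 3.86 in HD-het and 93.2 ± 15.9 in HD-homo cells (mean ± SD, n = 3), while Ccnb1, for cyclin B1, was lower in HD-het cells (log2 fold change -0.41 ± 0.06 (SE), adjusted p = 0.00012). Espl1, for separase, had the largest fall in HD-het cells (log2 fold change -1.28 ± 0.077 (SE), adjusted p = 1.3e-07) and did not pass in HD-homo cells (log2 fold change 0.017 ± 0.075 (SE), adjusted p = 0.862), where Prc1, a midzone protein, had the largest fall (log2 fold change -0.30 ± 0.074 (SE), adjusted p = 0.0046). Mki67, the gene of the proliferation antigen Ki-67, was higher in both HD lines (log2 fold change 0.40 ± 0.11 (SE), adjusted p = 0.00716 in HD-het and log2 fold change 0.49 ± 0.11 (SE), adjusted p = 0.00251 in HD-homo cells). Between the HD lines Espl1 was higher by the most in HD-homo cells (2.46-fold, adjusted p = 5.22e-08) and Cdc25c, a phosphatase that activates Cdk1, was lower by the most (log2 fold change -0.55 ± 0.11 (SE), adjusted p = 0.000713). Whether these counts differ from those of the replication genes was not tested.

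Of 7 genes of CDK inhibitors, 4 were higher and 1 lower in HD-het cells, and 2 were higher and 3 lower in HD-homo cells, beside the same shares of all tested genes. Cdkn2c, for p18, was higher in both lines, with 30.3 ± 0.201 CPM in control, 67.8 ± 2.36 in HD-het and 67.1 ± 5.17 in HD-homo cells. Cdkn1b, for p27, was higher in HD-het cells (log2 fold change 0.73 ± 0.087 (SE), adjusted p = 2.35e-05) and did not pass in HD-homo cells (log2 fold change -0.098 ± 0.088 (SE), adjusted p = 0.359). Cdkn2d, for p19, was higher in HD-het (log2 fold change 0.93 ± 0.11 (SE), adjusted p = 3.05e-05) and lower in HD-homo cells (log2 fold change -0.39 ± 0.12 (SE), adjusted p = 0.015), and Cdkn1c, for p57, showed the reverse at low levels (log2 fold change -1.33 ± 0.23 (SE), adjusted p = 0.000433 and log2 fold change 0.85 ± 0.2 (SE), adjusted p = 0.00365). Cdkn2b, for p15, had the largest fall in HD-homo cells (log2 fold change -0.68 ± 0.17 (SE), adjusted p = 0.00458). Against HD-het cells, HD-homo cells were higher by the most in Cdkn1c (log2 fold change 2.17 ± 0.22 (SE), adjusted p = 4.77e-06) and lower by the most in Cdkn2d (log2 fold change -1.32 ± 0.12 (SE), adjusted p = 1.43e-06).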
